A study of Mus musculus with 6 samples.

Results

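Integrins and cadherins are the receptors by which cells hold on to matrix and to each other. The set described here was every gene of the deposited table whose platform symbol named a numbered or lettered integrin alpha chain, an integrin beta chain or a numbered cadherin. It held 45 of 18193 named genes: 16 integrin alpha chains, 8 integrin beta chains and 21 cadherins. The 45 genes had 93 probe sets among them, and each gene was read by the probe set with the highest mean signal over the 6 arrays.

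Total RNA from 6 mouse samples had been hybridised to 1 expression array each. Bone marrow-derived dendritic cells (BMDC, 2 arrays) present antigen to T cells. Follicular dendritic cells (FDC, 2 arrays), a stromal type that holds antigen for B cells in follicles, had been grown in vitro. FL-Y (1 array) is an FDC-like cell line transformed with SV40, and activated FL-Y (1 array) is that line treated with an antibody to the lymphotoxin beta receptor. The strain and age of the mice, the culture conditions, the antibody dose and time, and whether FL-Y is 1 clone are not stated in the labels. Nothing in the labels says that paired arrays came from separate cultures, so the p-values rest on a spread between arrays that may be technical only.

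An integrin is a pair of 1 alpha and 1 beta chain, and the pair decides what is bound. Itgb2 pairs with Itgal, Itgam and Itgax on leukocytes, Itgb1 pairs with most alpha chains that bind collagen, laminin or fibronectin, and Itgav pairs with several beta chains to bind matrix proteins. Classical cadherins bind the same cadherin on a neighbouring cell through calcium-dependent contacts and are tied to actin by catenins. In lymphoid follicles, adhesion of B cells to FDC is known to use the leukocyte integrins and ICAM-1 or VCAM-1 on the FDC.

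Signals are in array units on a linear scale, and each array had been scaled to a trimmed mean of 500. The median of an array lay between 47.9 and 84.4, and its 20th percentile, taken here as a mark of background level, between 8.7 and 15.4. These marks are not measured limits of detection. The cell type labels were read against markers. The FDC marker Cr2 had signals of 119.5 and 4.1 in FDC, Fcer2a 104.1 and 42.4, Madcam1 107.5 and 69.6, and Cxcl13 1288 and 64.5, so these defining markers were near or below the array median on at least 1 FDC array each. The other markers of that list were bright, with 6959 and 5764 for Vcam1 and 5146 and 6484 for Mfge8, but Mfge8 was brighter in BMDC (27358 and 25082). The summed signal of 6 leukocyte markers was 111618 and 97782 in BMDC, 6106 and 5024 in FDC, 336 in FL-Y and 199 in activated FL-Y. The summed signal of 6 T cell markers was 1136 and 501 in BMDC, 2593 and 1582 in FDC and 150 in FL-Y. That of 6 mast cell markers was 5668 and 1084 in BMDC, 4092 and 7941 in FDC and 204 in FL-Y. In the comparison with BMDC described below, 0 of the 6 FDC markers were called higher in FDC and 1 lower. All 6 leukocyte markers were called lower, and 2 of 6 T cell and 2 of 6 mast cell markers higher. Of 7 fibroblast markers 6 were called higher in FDC, and their sum was 462 and 829 in BMDC, 215370 and 133538 in FDC, 127052 in FL-Y and 96193 in activated FL-Y. The part of such cells in the values below was not tested, and in bulk RNA fewer cells of a type and less RNA per cell cannot be told apart.

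FDC were compared with BMDC by limma on log2(signal + 14.2), with adjustment over all 27022 probe sets that passed a filter on low values. Of the 45 genes 28 passed that filter, 21 of 24 integrins and 7 of 21 cadherins. Among the integrins 2 were higher and 6 lower in FDC at an adjusted p under 0.05, and among the cadherins 2 were higher and 1 lower. Of all probe sets tested 8.93% were called, and over the 12747 named genes tested 11.4% were called, 5.99% higher and 5.45% lower. A gene that passed the filter through 1 cell type alone had to differ, so the members' counts are given as a description. The median log2 difference, FDC minus BMDC, was -1.81 over the tested integrins and 0.17 over the tested cadherins, beside -0.03 over all genes tested. All 11 called members had the same sign whether the first or the second arrays of the cell types were set against each other, and so did 24 of the 28 tested. The calls and these signs rest on the same arrays. Called members differed by at least 2.77 with an SE of at most 0.76, so the call nearly fixed their agreement. It is no further support, and the array numbers are not known to pair samples.

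**Figure D1:**
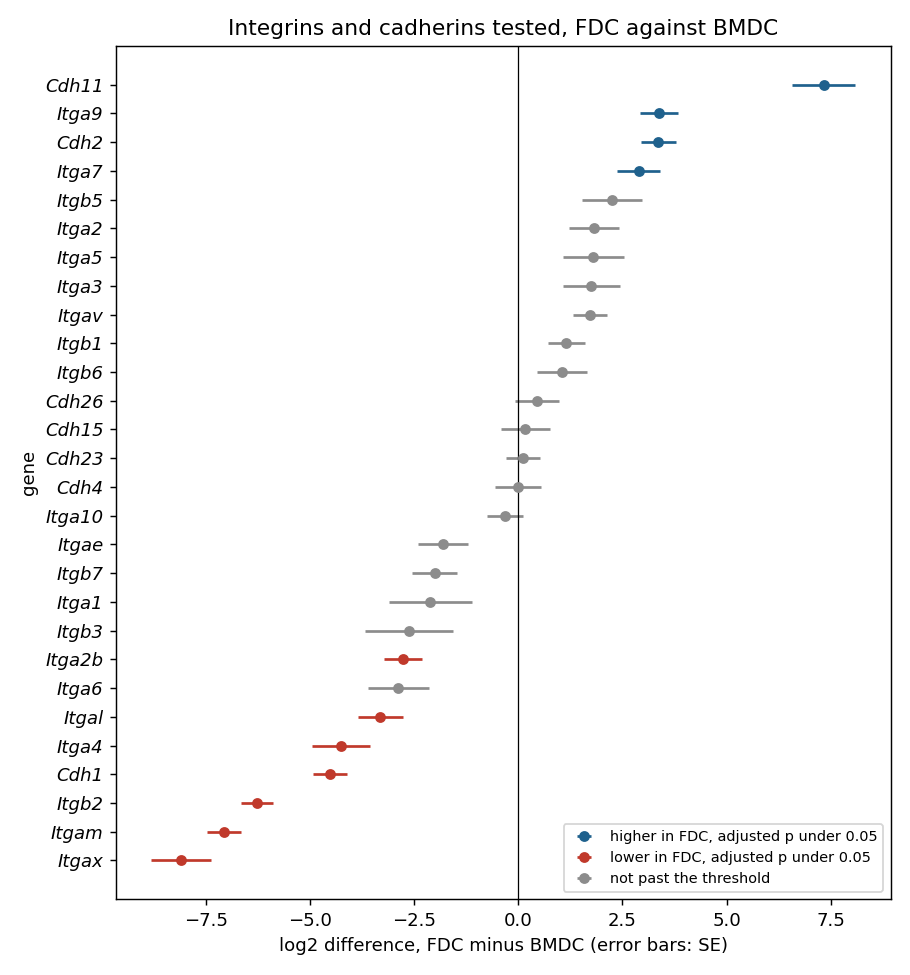
Log2 difference, FDC minus BMDC (horizontal axis), for the 28 integrin and cadherin genes tested, with the standard error of the limma fit as error bars; colours mark genes higher, lower or not past an adjusted p of 0.05. The differences run from -8.10 for Itgax to 7.33 for Cdh11, and 11 of the 28 genes are coloured.

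The leukocyte integrins were lower in FDC, and in FL-Y none stood clearly above the array median of 61.1. Itgax, the alpha chain known as CD11c and used as a dendritic cell marker, had signals of 19951 and 18428 in BMDC, 124.9 and 20.9 in FDC, 62.3 in FL-Y and 2.2 in activated FL-Y. Itgam, the CD11b chain of the complement receptor of myeloid cells, had 7027 and 8462 in BMDC, 53.8 and 34.1 in FDC, 1.9 in FL-Y and 10.2 in activated FL-Y. Neither gene's BMDC values came near those of the other arrays. The log2 difference, FDC minus BMDC, was -8.10 ± 0.71 (SE) for Itgax (adjusted p = 0.00456 with limma) and -7.07 ± 0.40 for Itgam (adjusted p = 0.00264).

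Itgb2, the beta chain that all leukocyte integrins of this family share, had signals of 35929 and 28052 in BMDC, 429 and 365.9 in FDC, 24.9 in FL-Y and 53.4 in activated FL-Y. Both FDC arrays thus stood above both FL-Y arrays and below both BMDC arrays. The log2 difference between FDC and BMDC was -6.27 ± 0.39 (SE, adjusted p = 0.00299). Itgal, the alpha chain of the ICAM receptor LFA-1, had 1027 and 1938 in BMDC, 185.8 and 89.4 in FDC, 39.6 in FL-Y and 19.3 in activated FL-Y. Itgal fell by 3.31 ± 0.54 (SE) on the log2 scale (adjusted p = 0.0242), and its second probe set was also called lower (-4.27). The Itgal call did not survive leaving out BMDC array 2 (0.0860) or FDC array 2 (0.0621). The Itgb2 and Itgal signals given here were higher in FDC than in FL-Y, as was the leukocyte marker sum given earlier. The second Itgal probe set did not show this. It had 46.2 and 13.1 in FDC, 46.8 in FL-Y and 33.7 in activated FL-Y. The part of leukocytes in the FDC signals was not tested.

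Itgam and Itgax lie next to each other on chromosome 7, with 0 protein-coding genes between them in the reference order, and both were called lower in FDC. Their promoters, from RefSeq (GRCm38.p6), are shown because both neighbours were called lower. The window is the 250 bases before the annotated start, on the plus strand, at chr7:128062390-128062639 for Itgam and chr7:128129300-128129549 for Itgax. Capitals mark the letters GAGGAA on either strand, a core often bound by the myeloid factor PU.1.
Itgam: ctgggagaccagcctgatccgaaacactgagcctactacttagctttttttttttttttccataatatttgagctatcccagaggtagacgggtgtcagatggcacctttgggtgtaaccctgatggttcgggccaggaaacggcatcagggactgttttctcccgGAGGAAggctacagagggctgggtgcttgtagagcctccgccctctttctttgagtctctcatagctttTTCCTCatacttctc
Itgax: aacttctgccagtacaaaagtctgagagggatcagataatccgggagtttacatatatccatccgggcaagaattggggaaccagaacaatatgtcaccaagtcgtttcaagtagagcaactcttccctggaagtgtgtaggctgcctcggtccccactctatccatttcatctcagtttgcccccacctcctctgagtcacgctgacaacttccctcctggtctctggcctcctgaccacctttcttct
The Itgam window held 2 matches and the Itgax window 0. A match was found in 23.3% of all 32851 windows. The 28 members with a promoter had 32 windows, of which 13 (40.6%) held one. A match is a description of letters, and its absence says nothing about the factor.

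Itga4 and Itgb7, chains of the receptors for VCAM-1 and MAdCAM-1, were brighter in BMDC. Itga4 had signals of 1387 and 597.9 in BMDC, 14.3 and 69.0 in FDC, 23.7 in FL-Y and 25.4 in activated FL-Y. The groups did not overlap, and Itga4 fell by 4.25 ± 0.70 (SE) on the log2 scale (adjusted p = 0.0242). Its adjusted p was 0.0747 when BMDC array 1 was left out, 0.0548 when FDC array 1 was, and 0.0554 with the array number as a block, so none of these kept the call. FDC array 1 was below the background mark for Itga4, so the size of the difference depends on the offset. Of its 5 probe sets only 1 other passed the filter (log2 difference of -1.80, adjusted p = 0.144).

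Itgb7 had signals of 1477 and 657.1 in BMDC, 185.5 and 296.2 in FDC, 44.7 in FL-Y and 13.4 in activated FL-Y. The difference of -2.01 ± 0.54 (SE) did not pass the threshold (adjusted p = 0.0933). Itgae, which pairs with Itgb7 to bind E-cadherin, had 164.3 and 486.1 in BMDC, 81.9 and 61.7 in FDC, 38.2 in FL-Y and 23.0 in activated FL-Y (difference of -1.81 ± 0.59, adjusted p = 0.144). For both genes every BMDC array was above every FDC array, and every FDC array above both FL-Y arrays.

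Itga2b and Itgb3 form the fibrinogen receptor of platelets, and Itgb3 also pairs with Itgav. Itga2b had signals of 4008 and 2108 in BMDC, 410.2 and 417.7 in FDC, 248.4 in FL-Y and 105.5 in activated FL-Y. It fell by 2.77 ± 0.46 (SE) on the log2 scale (adjusted p = 0.0250), a call that was lost without BMDC array 1 (adjusted p = 0.0922), FDC array 1 (0.0733) or FDC array 2 (0.0657), and with no filter on low values (0.0609). The megakaryocyte markers moved with it: 5 of 6, Itga2b itself among them, were called lower in FDC, and their summed signal was 77057 and 44221 in BMDC against 1110 and 1233 in FDC. Pf4, a platelet chemokine that myeloid cells can also make, had 37028 and 24616 in BMDC, and the part of such cells in the Itga2b result was not tested.

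Itgb3 varied within each cell type. Its signals were 3541 and 665.6 in BMDC, 103.2 and 529.3 in FDC, 3.9 in FL-Y and 1.9 in activated FL-Y. The FDC minus BMDC difference of -2.62 ± 1.06 (SE) did not pass (adjusted p = 0.220), with -4.92 for the arrays numbered 1 and -0.32 for those numbered 2. A second Itgb3 probe set had 243.5 on FDC array 2 and 7.3 on FDC array 1, so both probe sets were brighter on the same FDC array. BMDC array 1, where Itgb3, Itga4, Itgb7 and Itga6 were brighter than on array 2, also had the higher mast cell marker sum (5668 against 1084). The megakaryocyte, leukocyte and T cell marker sums were higher on that array too, and the fibroblast and epithelial ones lower. In FDC the mast cell sum was 4092 and 7941, and each of these genes was below both BMDC arrays. The part of any such cells in these values was not tested.

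The matrix-binding chains Itgb1, Itgav and Itgb5 were bright on all 6 arrays. Itgb1, the beta chain of most matrix receptors, had signals of 7016 and 5467 in BMDC, 10732 and 17673 in FDC, 9175 in FL-Y and 7999 in activated FL-Y. Both FDC arrays were above both BMDC arrays, but the difference of 1.15 ± 0.44 (SE) on the log2 scale did not pass the threshold (adjusted p = 0.198). Itgav had 1279 and 961.8 in BMDC, 3187 and 4316 in FDC, 3789 in FL-Y and 3856 in activated FL-Y. Its difference of 1.73 ± 0.41 (SE) missed the threshold (adjusted p = 0.0653) and passed with a larger offset (1.70, adjusted p = 0.0342). On this probe set FL-Y lay between the FDC arrays for Itgav.

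Itgb5, a beta chain of the vitronectin receptor with Itgav, had signals of 6196 and 1868 in BMDC, 23697 and 11264 in FDC, 7340 in FL-Y and 3966 in activated FL-Y. The groups FDC and BMDC did not overlap, and the first array was the brighter one in each. The difference of 2.26 ± 0.72 (SE) had an adjusted p of 0.135, and of 0.0469 with the array number as a block. All 4 Itgb5 probe sets gave differences between 2.26 and 2.60, and none was called. Itgb6 and Itgb8, which with Itgav can activate latent TGF-beta, had signals up to 91.9 and 108.9. Itgb6 had 91.9 and 83.9 in FDC, just above the array medians, and its second probe set had 6.6 and 3.6 there.

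**Figure D2:**
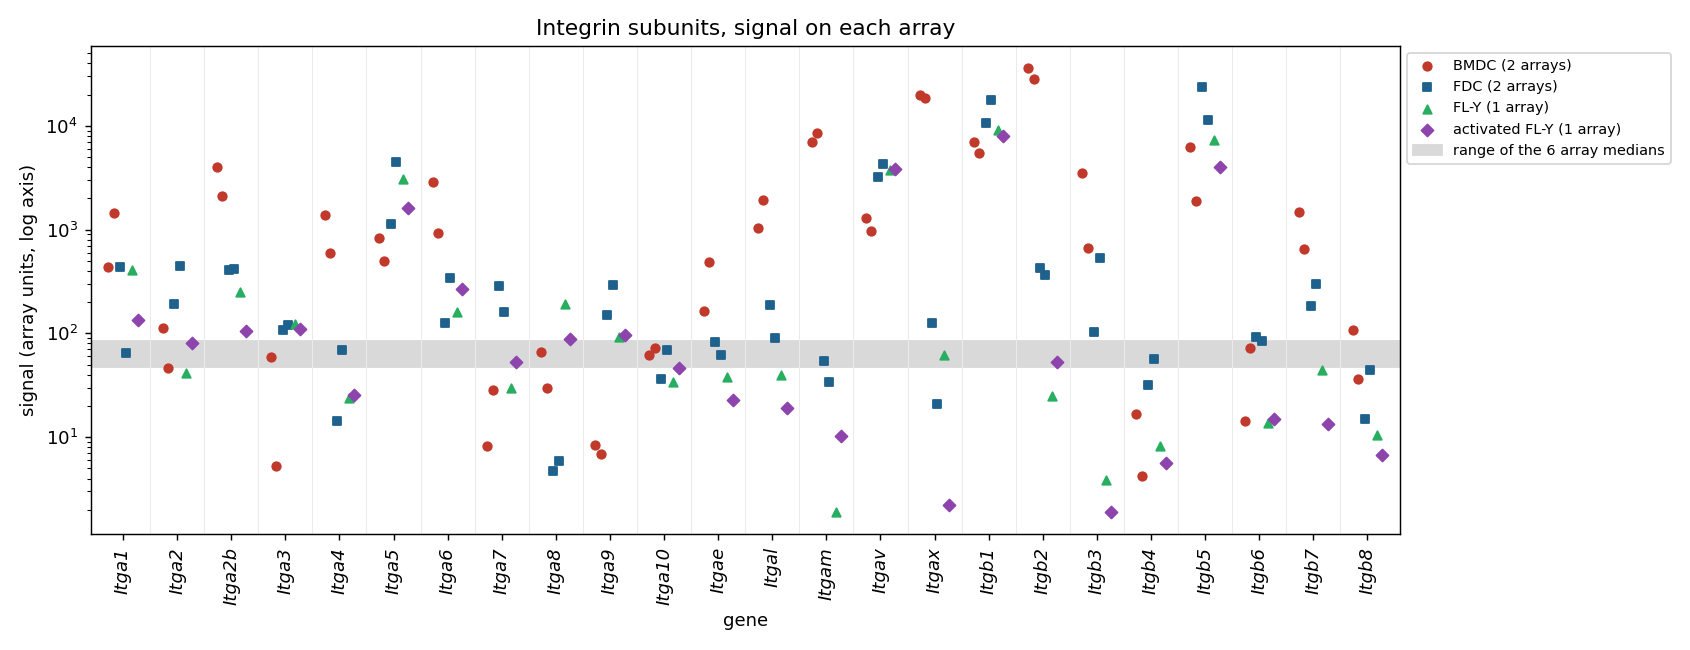
Signal on each array (log axis, array units) of the 24 integrin genes, alpha chains first; each point is 1 array, coloured by group, and the grey band spans the 6 array medians, 47.9 to 84.4. BMDC points lie far above all others for Itgam, Itgax and Itgb2, while Itgav, Itgb1 and Itgb5 lie above the band on all 6 arrays.

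Alpha partners of Itgb1 divided between the cell types. Itga9, a chain that binds tenascin-C and VCAM-1, had signals of 8.4 and 6.9 in BMDC, 150.9 and 295.8 in FDC, 92.5 in FL-Y and 95.8 in activated FL-Y. Itga9 rose by 3.37 ± 0.46 (SE) on the log2 scale (adjusted p = 0.0145). Its other probe sets did not pass the filter. One had 37.2 and 4.9 in BMDC and 79.6 and 80.9 in FDC. The other had 39.5 and 7.4 in BMDC and 8.9 and 12.9 in FDC. Itga7, a laminin-binding chain known from muscle, had 8.2 and 28.6 in BMDC, 287.1 and 159.6 in FDC, 29.7 in FL-Y and 52.9 in activated FL-Y, and rose by 2.89 ± 0.52 (adjusted p = 0.0321). These were the only 2 integrins called higher, and both rested on BMDC signals at or near background, so their size depends on the offset. The Itga9 call was lost without BMDC array 1 (adjusted p = 0.0525) or 2 (0.0572), and without either FDC array the gene did not pass the filter. The Itga7 call was lost without BMDC array 1 (0.113) or 2 (0.0524) and with the array number as a block (0.0612), and without FDC array 1 Itga7 did not pass the filter. The muscle genes Acta2 and Tagln were also called higher in FDC, among 4 tested muscle markers. The summed signal of 6 muscle markers was 463 and 589 in BMDC and 19165 and 62439 in FDC. That sum was 90087 in FL-Y and 59408 in activated FL-Y. Itga7 was dimmer on FDC array 2 than on FDC array 1, and dimmer still on both FL-Y arrays. The part of muscle cells in the Itga7 result was not tested.

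Itga5, the fibronectin receptor chain, had signals of 830.3 and 496.2 in BMDC, 1138 and 4511 in FDC, 3080 in FL-Y and 1600 in activated FL-Y. FDC array 2 was far brighter than FDC array 1, and the difference of 1.80 ± 0.74 (SE) from BMDC did not pass (adjusted p = 0.228). Itga6, which binds laminin, went the other way, with 2865 and 922.1 in BMDC, 125.0 and 342.8 in FDC, 162.2 in FL-Y and 269.3 in activated FL-Y. Its difference of -2.88 ± 0.74 missed the threshold (adjusted p = 0.0825), although both of its probe sets had BMDC above FDC on every array, and it passed with the larger offset (adjusted p = 0.0475).

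The collagen-binding chains gave no call. Itga1 had signals of 433.7 and 1459 in BMDC, 431.4 and 65.2 in FDC, 409.2 in FL-Y and 135.7 in activated FL-Y (difference of -2.11 ± 0.99, adjusted p = 0.286), so the first BMDC and FDC arrays were alike and the second ones far apart. Itga2 had 111.9 and 46.4 in BMDC, 191.7 and 447.6 in FDC, 41.5 in FL-Y and 81.7 in activated FL-Y (1.82 ± 0.60, adjusted p = 0.148). Itga10 stayed between 33.9 and 72.3 on all arrays, below the median of each. Itga3, another laminin receptor chain, was at 107.0 and 120.6 in FDC and 123.8 in FL-Y against 59.6 and 5.3 in BMDC (1.75 ± 0.69, adjusted p = 0.211). Itgb4, the partner of Itga6 in hemidesmosomes, was at most 56.8 and was not tested.

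Cadherins separated the cell types through 3 genes. Cdh11, a cadherin of mesenchymal cells, had signals of 1.5 and 44.4 in BMDC, 3392 and 6986 in FDC, 4118 in FL-Y and 9120 in activated FL-Y. It was higher in FDC by 7.33 ± 0.76 (SE) on the log2 scale (adjusted p = 0.00680), and BMDC array 1 was below the background mark, so that size depends on the offset. The fibroblast marker sum was, like Cdh11 and Cdh2, higher in FDC and FL-Y than in BMDC. Within these cells it went the other way from the brightest probe sets of both genes. The sum was lower on FDC array 2 than on array 1, and lower on the activated FL-Y array than on FL-Y. The part of fibroblasts in the Cdh11 and Cdh2 results was not tested. The Cdh11 gene's second probe set was also called higher (2.48, adjusted p = 0.0497). Cdh2, the N-cadherin of neural and mesenchymal cells, had 83.7 and 79.9 in BMDC, 757.3 and 1247 in FDC, 877.8 in FL-Y and 977.6 in activated FL-Y, a difference of 3.36 ± 0.42 (adjusted p = 0.0117). The second Cdh2 probe set gave 3.86 (adjusted p = 0.00548), and without BMDC array 2 the call of the brighter one was just lost (adjusted p = 0.0504).

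Cdh1, the E-cadherin of epithelia that some dendritic cells also carry, had signals of 1356 and 1352 in BMDC, 59.0 and 34.2 in FDC, 2.7 in FL-Y and 2.6 in activated FL-Y. It fell by 4.52 ± 0.41 (SE) on the log2 scale in FDC (adjusted p = 0.00482). Of 6 epithelial markers 5 were tested and 0 were called with limma (2 at an unadjusted p under 0.05). The median difference of the list was -0.81. Their summed signal was 514 and 750 in BMDC against 424 and 1746 in FDC, of which Krt19, named after its values were seen, made up 177.6 and 1519 in FDC. Without Krt19 the sums were 464 and 746 in BMDC and 246 and 227 in FDC. Krt19 was left out after its values were seen, so these sums do not stand for the list. The part of epithelial cells in the Cdh1 result was not tested. Epcam had 131.1 and 485.9 in BMDC and 49.4 and 9.6 in FDC (difference of -2.79 ± 0.79, adjusted p = 0.102).

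The other 18 cadherins were dim. Among the 14 that were not tested, the highest signal was 221.6 for Cdh3 in FL-Y, and no other exceeded the 121.5 of Cdh17 on BMDC array 2. Cdh5, the cadherin of endothelial junctions, was at most 72.6. Cdh4, Cdh15, Cdh23 and Cdh26 were tested, with differences between -0.01 and 0.45 and none called. Of the 21 cadherins 10 were above the median on no array and 0 on all 6.

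**Figure D3:**
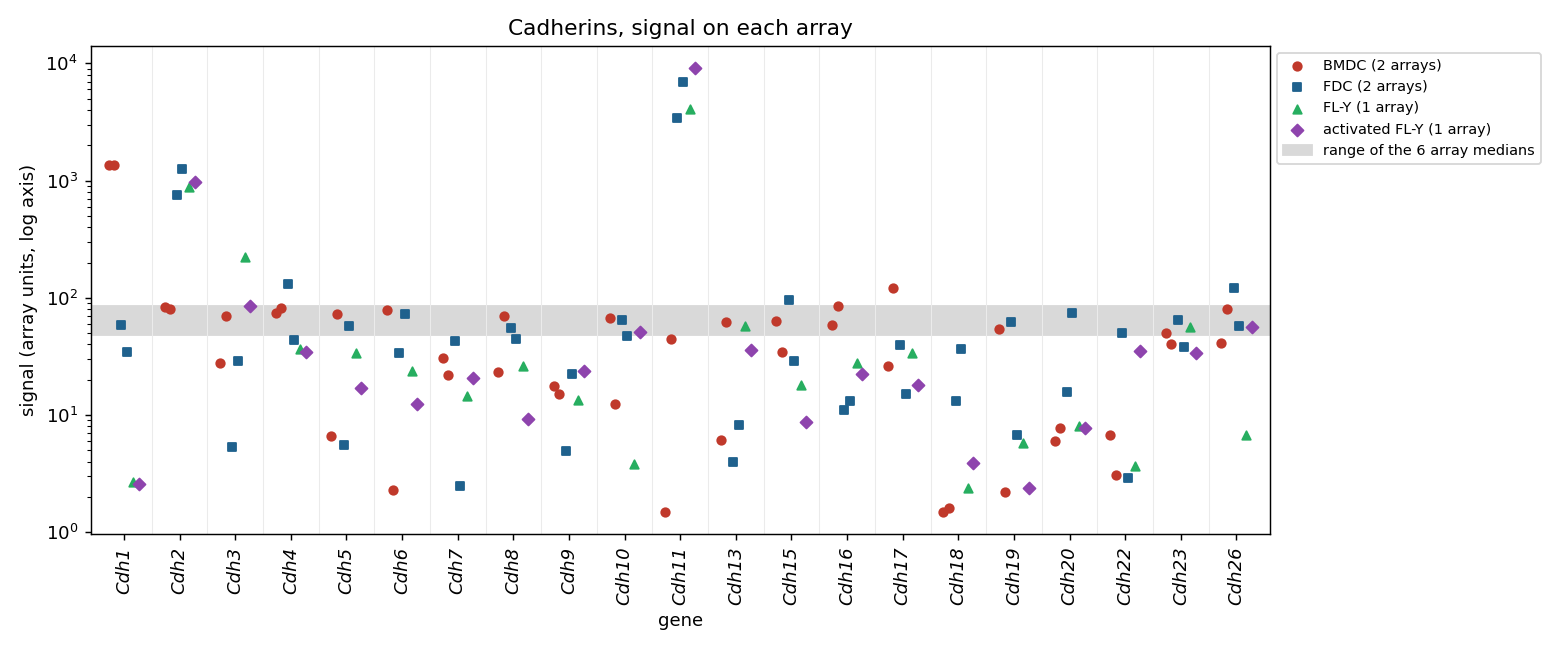
Signal on each array (log axis, array units) of the 21 cadherin genes; each point is 1 array, coloured by group, and the grey band spans the 6 array medians. Cdh11 and Cdh2 lie above the band in FDC and both FL-Y arrays, Cdh1 lies above it in BMDC alone, and nearly all other points lie within or below it.

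Possible integrin pairs were read from transcripts, which do not measure pairs of proteins. Of 24 known alpha and beta combinations 22 could be read, and those of Itga11 and Itgad were not analysed here. A pair was counted in a group when both chains lay above the median of each of its arrays. On that mark 13 pairs were counted in BMDC, 12 in FDC, 8 in FL-Y and 10 in activated FL-Y, and 7 were shared by BMDC and FDC. Among all named genes, 55.1% were above the median on both BMDC arrays, 55.7% on both FDC arrays, 59.3% in FL-Y and 58.2% on the activated one, so the mark is a loose one.

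The 4 pairs counted on all 6 arrays were Itgb1 with Itga5, Itga6 or Itgav, and Itgb5 with Itgav. The 6 pairs counted in BMDC and not in FDC joined Itgb1 with Itga1 or Itga4, Itgb2 with Itgam or Itgax, and Itgb7 with Itga4 or Itgae. The 5 counted in FDC and not in BMDC joined Itgb1 with Itga2, Itga3, Itga7 or Itga9, and Itgav with Itgb6. A pair not counted in a group could still be above the mark on 1 of its arrays. That held on FDC array 1 for Itgb1 with Itga1 and Itgb2 with Itgax, and on BMDC array 1 for Itgb1 with Itga2. Both chains were called lower in FDC for 3 pairs, those of Itgb2 with Itgal, Itgam and Itgax, and both higher for 0. The count for FDC was 6 with the mark at the 60th percentile and 19 at the 20th.

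**Figure D4:**
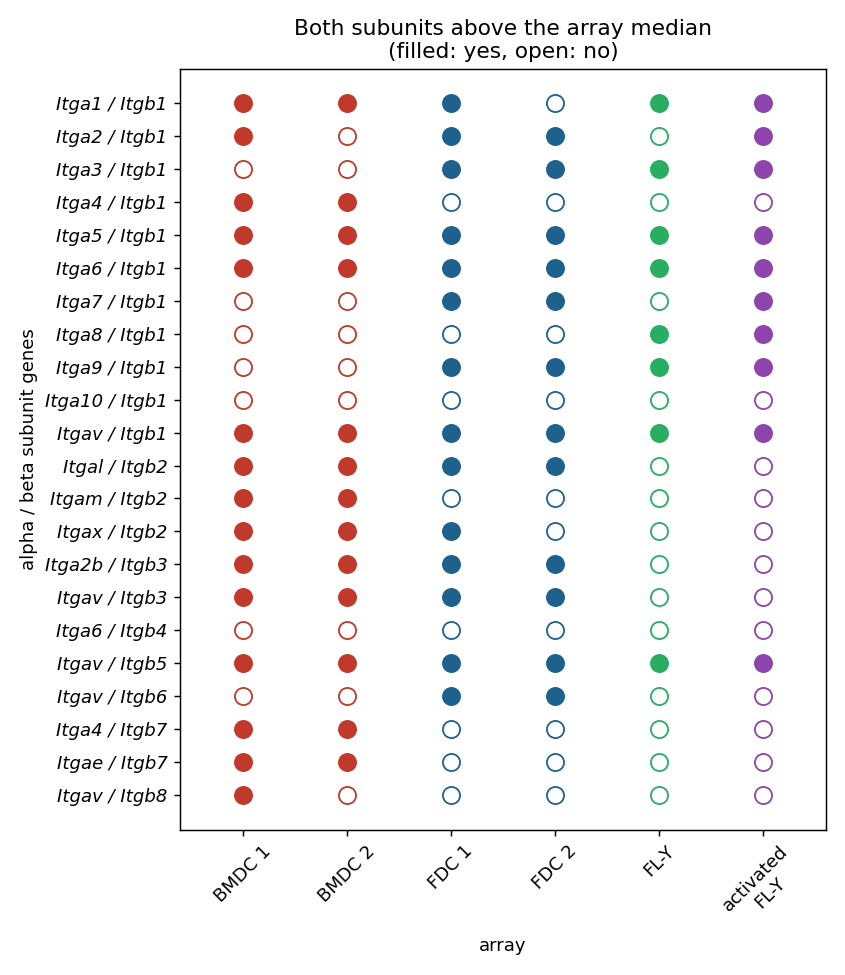
Each row is 1 of 22 integrin pairs and each column 1 array; a filled circle means that both subunit genes were above the median signal of that array. The Itgb2 pairs are filled in BMDC and open on both FL-Y arrays, and 4 pairs are filled in every column.

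FL-Y was set beside cultured FDC without a test, since it has 1 array. A gene was counted when FL-Y lay at least 2-fold (1 on the log2 scale) above both or below both FDC arrays. Of 25 members past the filter 1 was higher and 7 lower in FL-Y, beside 22.6% of 12582 genes in either direction, 8.74% higher and 13.8% lower. The median difference, FL-Y minus FDC, was -0.71 over the integrins and -0.19 over the cadherins, beside -0.10 over all genes in the comparison. Rescaling the arrays to one median moved the median of all named genes from -0.13 to 0.19, and the share of genes counted to 16.3% higher and 9.16% lower, while the members stayed at 1 higher and 7 lower.

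The members lower in FL-Y were Itgb2, Itgb3, Itgb6, Itgb7, Itga2, Itga7 and Cdh26, with 4 beta chains among them. Their log2 differences from the FDC mean were -3.39 for Itgb2, -3.80 for Itgb3, -1.87 for Itgb6, -2.08 for Itgb7, -2.47 for Itga2, -2.38 for Itga7 and -2.23 for Cdh26. For Itgb3 and Itgb6 this rests on 1 probe set each. The second Itgb3 probe set had 40.8 in FL-Y, between the 7.3 and 243.5 of FDC. That of Itgb6 was dim, with 20.6 in FL-Y against 6.6 and 3.6 in FDC. The leukocyte marker sum was also lower in FL-Y, with 5 of 5 leukocyte markers in the comparison counted lower, and so were 6 of 6 T cell and 5 of 6 mast cell markers. The part of such cells in the Itgb2 and Itgb7 values of FDC was not tested.

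Cdh3, the P-cadherin of epithelial and other cells, was the member counted as higher in FL-Y. Its signals were 27.9 and 70.1 in BMDC, 5.3 and 28.7 in FDC, 221.6 in FL-Y and 84.4 in activated FL-Y, a log2 difference of 3.03 from the FDC mean, while its second probe set had 62.6 in FL-Y and 55.6 on FDC array 1. Itga8, a partner of Itgb1 that binds nephronectin, had 66.6 and 29.5 in BMDC, 4.7 and 5.9 in FDC, 193.5 in FL-Y and 88.1 in activated FL-Y. It did not pass the filter for FL-Y against FDC, where the difference was 3.41 on the log2 scale. Npnt, which encodes nephronectin, had 45.6 and 358.2 in FDC and 1031 in FL-Y, and was brighter in FL-Y than on either FDC array. The second Itga8 probe set was dim and had 28.0 and 5.3 in FDC and 12.9 in FL-Y, so the higher FL-Y signal rests on 1 probe set.

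Members that were bright or called higher in FDC differed in how close FL-Y came to them. The FL-Y signal lay between the FDC arrays for Cdh11, Cdh2, Itgav and Itga5, with log2 differences from the FDC mean of -0.24, -0.14, 0.03 and 0.44. The sign for Cdh11 and Cdh2 turned to 0.17 and 0.26 with rescaling to one median, and that for Itgav to -0.03 with quantile normalization. The second Cdh2 probe set went the other way from the first, with 673.1 in FL-Y against 271.7 and 267.7 in FDC, a log2 difference of 1.28. On the second Cdh11 probe set FL-Y had 151.7, below the 179.6 and 294.1 of FDC. Other Itgav probe sets also had FL-Y below both FDC arrays (379.9 against 392.3 and 1184, 70.6 against 88.1 and 493.7), but a dim one had it above (76.6 against 16.0 and 8.3). The next brightest Itga5 probe set had FL-Y between the FDC arrays (791.6 against 384.0 and 1682). FL-Y lay below both FDC arrays for Itga9 (-1.08), Itgb5 (-1.15) and Itgb1 (-0.59), and for Itga7 as given earlier. The other Itgb5 probe sets did so too. The second brightest Itgb1 probe set had 7228 in FL-Y, between the 5298 and 9880 of FDC. The other Itga9 probe sets were dimmer and had FL-Y above both FDC arrays (99.4 against 79.6 and 80.9, 36.3 against 8.9 and 12.9). Against BMDC, 6 of 27 members were at least 2-fold higher and 11 lower in FL-Y, beside 33.7% of 12575 genes in either direction, 14.5% higher and 19.2% lower. With rescaling to one median, 7 members were higher, Itga3 being added, and 11 lower, beside 22.3% and 14.5% of genes. The higher ones were Cdh11, Cdh2, Cdh3, Itga5, Itga8 and Itgav, and the lower ones held Itgb2 (-9.67), Itgam (-8.91) and Itgax (-7.97). This comparison shares the FL-Y array with the one against FDC.

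Activation of FL-Y through the lymphotoxin beta receptor was read from 1 array against 1, with no replicate check. Of 20 members past the filter 1 was at least 2-fold higher and 4 lower on the activated array, beside 6.77% of 12155 genes in either direction, 1.83% higher and 4.94% lower. That balance depended on the scaling. With rescaling to one median 4 members were higher and 1 lower, beside 4.86% and 2.59% of genes, and with quantile normalization 2 were higher and 3 lower. Cdh11 was higher and Itga1 lower under each of these scalings. Cdh11 went from 4118 to 9120, a log2 difference of 1.14, and its second probe set from 151.7 to 329.5. With quantile normalization the Cdh11 difference was 1.23.

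The 4 members lower on the activated array were Itga1 (-1.50), Cdh3 (-1.26), Itga2b (-1.13) and Itga8 (-1.02), on the log2 scale. With rescaling to one median, Cdh3 (-0.96), Itga2b (-0.83) and Itga8 (-0.72) no longer reached 2-fold, while Itgb2 (1.12), Itga2 (1.12) and Itga6 (1.03) were past it on the higher side. Itgb2 was also past it with quantile normalization. Itgb1 (-0.20), Itgav (0.03) and Cdh2 (0.15) differed little between the arrays. Itgb5 had -0.89 and Itga5 -0.94. Rescaling moved the median of all named genes in this comparison from -0.09 to 0.21.

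Integrins act through a cytoplasmic scaffold, and some related scaffold genes went in opposite directions, while Tln1 and Tln2, Lims1 and Lims2, and Parvb gave no call. Of 23 integrin adaptors measured and tested, 3 were higher and 2 lower in FDC, with a median of -0.29. Over all named genes tested, 5.99% were higher and 5.45% lower, with a median of -0.03. Fermt2, the kindlin of adherent tissue cells, had signals of 75.1 and 11.2 in BMDC and 4472 and 8592 in FDC, while Fermt3, the kindlin of blood cells, named after its values were seen, had 12679 and 9012 in BMDC and 289.1 and 293.6 in FDC. The log2 differences were 7.03 ± 0.72 (SE) and -5.13 ± 0.39. Parva and Parvg, parvins that link integrin complexes to actin, split likewise, with 6.72 ± 0.69 and -5.92 ± 0.39. The docking protein Bcar1 was higher by 5.44 ± 0.39. In FL-Y, Fermt2 had 9383 and Parva 5291, against 35.0 for Fermt3 and 6.8 for Parvg.

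Ligands of these receptors were read from lists. Over all named genes tested, 5.99% were called higher and 5.45% lower in FDC, with a median of -0.03. Of 20 matrix ligands tested, 11 were higher and 1 lower in FDC, with a median of 4.07. The lower one was Mfge8 (-2.18), which binds Itgav integrins. The largest were the collagen chains Col1a1 (8.88) and Col1a2 (7.89), tenascin-C, Tnc (8.37), and the basement membrane protein Nid1 (7.53). Tnc, a ligand of the Itga9 receptor, had signals of 3.1 and 158.2 in BMDC and 13199 and 24541 in FDC, and lost its call without an offset (adjusted p = 0.0668). Fibronectin, Fn1, named after its values were seen, had 30732 and 20653 in BMDC and 28268 and 23942 in FDC, so the groups overlapped.

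Of 11 cell-surface ligands tested, Jam3, a junctional adhesion molecule, was higher (4.38 ± 0.39), and Icam2 (-3.31 ± 0.39) and Cdh1 were lower in FDC. The shares over all named genes tested were 5.99% higher and 5.45% lower. Vcam1 and Icam1, ligands of the Itga4 and Itgb2 receptors, were named after their values were seen. Vcam1 had a difference of 4.27 ± 0.95 (SE, adjusted p = 0.0566), and passed without BMDC array 2 (0.0130), with the larger offset (0.0234) and with rescaling to one median (0.0410). Icam1 had 1776 and 3502 in BMDC, 1832 and 2360 in FDC, 115.1 in FL-Y and 789 in activated FL-Y, a log2 difference of 2.64 between the FL-Y arrays.

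The catenins that tie cadherins to actin gave no call in FDC against BMDC. Of 10 tested, 0 passed with limma, beside 11.4% of all named genes tested, and 2 had an unadjusted p under 0.05. The 2 largest differences were those of Pkp4 (-1.36 ± 0.44, adjusted p = 0.143) and Ctnnd2 (1.32 ± 0.43, adjusted p = 0.143). Beta-catenin, Ctnnb1, had 28941 and 15019 in BMDC and 16707 and 17047 in FDC.

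Of 8 tested transcription factors that are known to repress Cdh1 or to mark mesenchymal cells, 4 were higher in FDC and 0 lower, with a median of 2.58. Over all named genes tested, 5.99% were higher and 5.45% lower, with a median of -0.03. The part of these factors in the Cdh1 result was not tested. Snai2 had signals of 15.9 and 7.1 in BMDC, 887.7 and 1778 in FDC, 5919 in FL-Y and 4899 in activated FL-Y, and a difference of 5.65 ± 0.50 (SE). Snai1 was higher by 5.02 ± 0.69, Twist1 by 3.30 ± 0.47 and Zeb1 by 1.87 ± 0.38. Zeb1 lost its call whichever array was left out (adjusted p from 0.105 to 0.183), and Twist1 without BMDC array 2 (0.0657) or FDC array 1 (0.0516).

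Of the 45 genes 25 had several probe sets. None of them had probe sets called in opposite directions, and 1 called gene, Itga4, had another tested probe set that was not called. For Itga9 only 1 of 3 probe sets was tested. The choice of the probe set by mean log2 value in place of mean signal changed the probe set of 0 members.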

How the data were processed

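Each of 45101 probe sets (64 of them controls) has 1 linear intensity for every array in the deposited values. The trimmed mean (2% at each end) is 500 on each array, so the authors had scaled the arrays to one target. Which program made the values is not given in the sources used here. The number of arrays limits the precision.

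Gene symbols were those of the platform, with 1 gene for 34945 probe sets, several for 932 and none listed for 9160. No gene was named from the last 2 kinds. All 45 members were found by identifier in a GRCm38.p6 gene table, used for names and gene order.

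The scale was log2(signal + 14.2). The offset, a median of the arrays' 20th percentiles, understates changes of dim genes. Probe sets above the 40th percentile of the mean log2 value over the arrays compared were kept (a signal of 46.4 for FDC and BMDC). The test between FDC and BMDC used limma 3.58.1 under R 4.3.3 (2 residual and 3.35 prior degrees of freedom, two-sided, Benjamini-Hochberg, threshold 0.05). The fit was tested on simulated data. An exact permutation test of 2 against 2 cannot give a p below 0.333 and was not used. FL-Y comparisons have no test.

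The members, gene lists and tests were chosen with earlier results of these data known. Named genes are the called members, members past 2-fold in the FL-Y comparisons, shared beta chains and Itgav, and up to 4 called genes per partner list by size (the 2 largest where none was called). Other genes given with values were added for their role, after their values were seen. Alternatives tried were 2 other offsets, 2 normalizations, no filter, another choice of probe set, each array left out, the array number as a block, and 2 other marks for pairs.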

Additional observations from a re-analysis of the deposited data

How the results depend on the processing

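Of the 11 members called between FDC and BMDC, 5 (Itgax, Itgam, Itgb2, Cdh1 and Cdh11) kept direction and call in every fit, and none of the 11 changed sign. Among the 28 tested, 5 uncalled members changed sign in at least 1 alternative (Cdh4, Cdh15, Cdh23, Cdh26 and Itga10). Integrins higher in FDC numbered 2, but 0 without an offset, 1 with no filter and 0 to 1 with 1 array left out. Integrins lower numbered 6, but 3 with no filter and 4 to 5 with 1 array left out. Cadherins higher numbered 2, or 1 to 2 with 1 array left out. With the replicate number as a block, an alternative whose numbers are not known to pair the samples (BMDC array 1 carries none in its label, and differences between arrays 1 and 2 correlated at r = 0.199 across probe sets), 2 integrins were higher and 4 lower, and Itga4, Itga7 and Itgal lost their call (adjusted p = 0.0554, 0.0612 and 0.0515) while Itgb5 gained one. Over all probe sets 2413 were called, 1454 without an offset, 1433 with no filter and 1312 to 2090 with 1 array left out. Members past 2-fold between FL-Y and FDC numbered 8, or 14 with no filter, and on activation 5, or 10 with no filter and 3 with the larger offset. Pairs in FDC numbered 12, but 6 at the 60th and 19 at the 20th percentile, those in activated FL-Y 10, but 6 and 17, and those in FL-Y 8, but 17 at the 20th. Cause was not tested. Signals near background limit the size of every difference from a dim group.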
